A study of Mus musculus with 29 samples.

Results

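The 37 genes described here are a set of G2/M and mitosis genes, given by name from Mki67 and Cdk1 to Cdc25c and Racgap1, and all 37 were found among the 45232 genes of the count tables. They were measured in pancreatic islets of wild-type male C57BL/6 mice at 8 or 52 weeks of age (labelled Young, 8-10 weeks, and Old, 1 year). Mice ate either a standard diet with 13.1% of its energy as fat (SD) or a high-fat diet with 41% (HFD), for 1 week in both cases. No group carried a transgene or a deletion, and whole islets were used, so each value is a bulk value over all cells of the preparation. Bulk RNA comprised 14 libraries, which came to 12 samples with 3 per group after nearly identical libraries were summed. Bisulfite sequencing of selected regions gave 15 DNA libraries, 4 per group except 3 for old mice on the HFD. The labels number the samples but do not say how many mice stand behind each, so p-values measure the spread between these samples.

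Cells that divide make the products of these genes in a burst between the end of DNA synthesis and the separation of the daughter cells. Cyclins A and B switch on the kinase CDK1, which starts mitosis. Polo-like and Aurora kinases, kinesins and the centromere proteins then build the spindle, and the anaphase-promoting complex ends mitosis by marking cyclins and other proteins for destruction. Many of the promoters carry CCAAT boxes bound by NF-Y and a cell cycle genes homology region (CHR) near the start, through which the DREAM and MuvB complexes hold the genes down in resting cells and raise them in dividing ones. Beta cells of adult islets divide rarely, and division becomes rarer with age.

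The RefSeq promoter windows (GRCm38.p6, 250 bases before to 50 after the start) held an entry for 29 of the 37 genes. The letters of the CHR, TTTGAA on either strand, were found in 23 of these 29 genes (79.3%) against 17.9% of all 32851 windows. CCAAT on either strand was found in 25 (86.2%) against 37.4%, and TTTGAA or TTCGAA together with CCAAT in 22 (75.9%) against 7.53%. The CHR variant TTCGAA was present in 3 genes, Bub1, Bub1b and Top2a (10.3%, against 1.56% of all windows). The E-box CACGTG was present in 2, Anln and Ttk (6.90%, against 7.15% of all windows). A match describes letters and is not a bound site. Below are windows chosen to show the range, on the gene's own strand and with the TTTGAA and the CCAAT letters, on either strand, in capitals: an M-phase kinase pair and a B cyclin with both motifs close to the start, a ubiquitin-conjugating enzyme with 6 CCAAT matches, the proliferation marker Mki67 with its matches further upstream, the gene with the smallest diet difference in young islets, Racgap1, and Birc5, which had neither.
Cdk1 (chr10:69352863-69353162, minus strand): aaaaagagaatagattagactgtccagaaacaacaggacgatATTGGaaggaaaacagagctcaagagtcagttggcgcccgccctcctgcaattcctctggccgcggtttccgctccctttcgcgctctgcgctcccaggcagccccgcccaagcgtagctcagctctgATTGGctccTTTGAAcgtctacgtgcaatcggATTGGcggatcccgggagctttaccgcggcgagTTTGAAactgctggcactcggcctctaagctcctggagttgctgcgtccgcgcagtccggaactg
Plk1 (chr7:122159185-122159484, plus strand): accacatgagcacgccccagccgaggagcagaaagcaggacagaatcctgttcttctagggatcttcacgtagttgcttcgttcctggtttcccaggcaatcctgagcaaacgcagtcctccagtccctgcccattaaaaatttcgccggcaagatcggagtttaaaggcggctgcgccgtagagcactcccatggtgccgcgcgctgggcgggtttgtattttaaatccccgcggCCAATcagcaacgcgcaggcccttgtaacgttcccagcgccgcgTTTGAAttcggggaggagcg
Ccnb2 (chr9:70421505-70421804, minus strand): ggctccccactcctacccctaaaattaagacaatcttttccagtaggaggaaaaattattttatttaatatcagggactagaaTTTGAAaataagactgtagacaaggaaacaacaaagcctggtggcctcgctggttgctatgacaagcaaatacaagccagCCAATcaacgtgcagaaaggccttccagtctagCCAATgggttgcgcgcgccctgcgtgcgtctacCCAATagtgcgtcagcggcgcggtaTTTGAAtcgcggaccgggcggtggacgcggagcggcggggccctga
Ube2c (chr2:164769679-164769978, plus strand): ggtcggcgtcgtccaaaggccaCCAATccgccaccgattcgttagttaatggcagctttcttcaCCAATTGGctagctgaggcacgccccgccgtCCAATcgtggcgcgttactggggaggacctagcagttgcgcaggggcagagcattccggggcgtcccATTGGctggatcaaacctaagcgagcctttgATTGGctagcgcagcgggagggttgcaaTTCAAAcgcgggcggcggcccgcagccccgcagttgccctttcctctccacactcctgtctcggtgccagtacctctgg
Mki67 (chr7:135716330-135716629, minus strand): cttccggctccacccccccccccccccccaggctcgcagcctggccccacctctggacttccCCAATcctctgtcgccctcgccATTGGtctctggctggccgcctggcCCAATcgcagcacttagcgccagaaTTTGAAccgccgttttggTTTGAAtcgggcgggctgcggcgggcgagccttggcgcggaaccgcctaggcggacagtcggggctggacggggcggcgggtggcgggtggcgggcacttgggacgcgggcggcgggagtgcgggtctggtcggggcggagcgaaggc
Racgap1 (chr15:99651607-99651906, minus strand): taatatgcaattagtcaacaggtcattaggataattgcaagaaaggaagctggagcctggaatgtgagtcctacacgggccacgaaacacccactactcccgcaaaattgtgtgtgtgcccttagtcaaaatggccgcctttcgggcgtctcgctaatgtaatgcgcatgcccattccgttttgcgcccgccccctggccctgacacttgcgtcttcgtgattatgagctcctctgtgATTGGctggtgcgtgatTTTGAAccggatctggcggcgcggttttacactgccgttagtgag
Birc5 (chr11:117848987-117849286, plus strand): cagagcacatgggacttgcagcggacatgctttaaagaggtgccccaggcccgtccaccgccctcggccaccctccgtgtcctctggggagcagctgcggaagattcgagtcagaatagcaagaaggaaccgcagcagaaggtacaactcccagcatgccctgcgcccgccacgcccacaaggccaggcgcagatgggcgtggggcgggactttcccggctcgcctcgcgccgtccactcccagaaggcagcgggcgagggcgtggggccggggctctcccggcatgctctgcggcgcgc

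In Cdk1, TTTGAA began 15 and 71 bases before the start and CCAAT 48, 80 and 208 bases before it. In Mki67, the nearest TTTGAA began 98 bases and the nearest CCAAT 141 bases before the start. The member windows were rich in CpG, with a median of 24 CpG dinucleotides against 7 over all windows.

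Libraries held 68395276 to 79652561 gene counts. Beta cell markers were abundant in every sample, with a summed level of 170522 to 332620 CPM (gene counts scaled to a common library size over the 12 samples), so the islet label held. In old islets, libraries 2 and 4 on the SD were nearly identical, as were libraries 1 and 4 on the HFD: the scaled chi-square between them, which is 1 for sampling noise alone, was 2.82 and 2.89, against 7.47 to 45.2 for the 16 other pairs of a group. They thus differed by more than counting noise, but by far less than other libraries. Since the labels do not say whether such a pair shares its RNA, each was summed and counted as 1 sample, called SD 2-4 and HFD 1-4. Sample SD 2-4 stands apart for most of the 37 genes, so the main results that use it are also given without it. That choice rests on the members' own values and lowers their old SD level. Member counts and p-values without it are therefore descriptive. The shares over all genes, for which the sample was not chosen, are not a like comparison for them. Young and old islets were counted in separate tables, and age and table cannot be told apart.

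**Figure D1:**
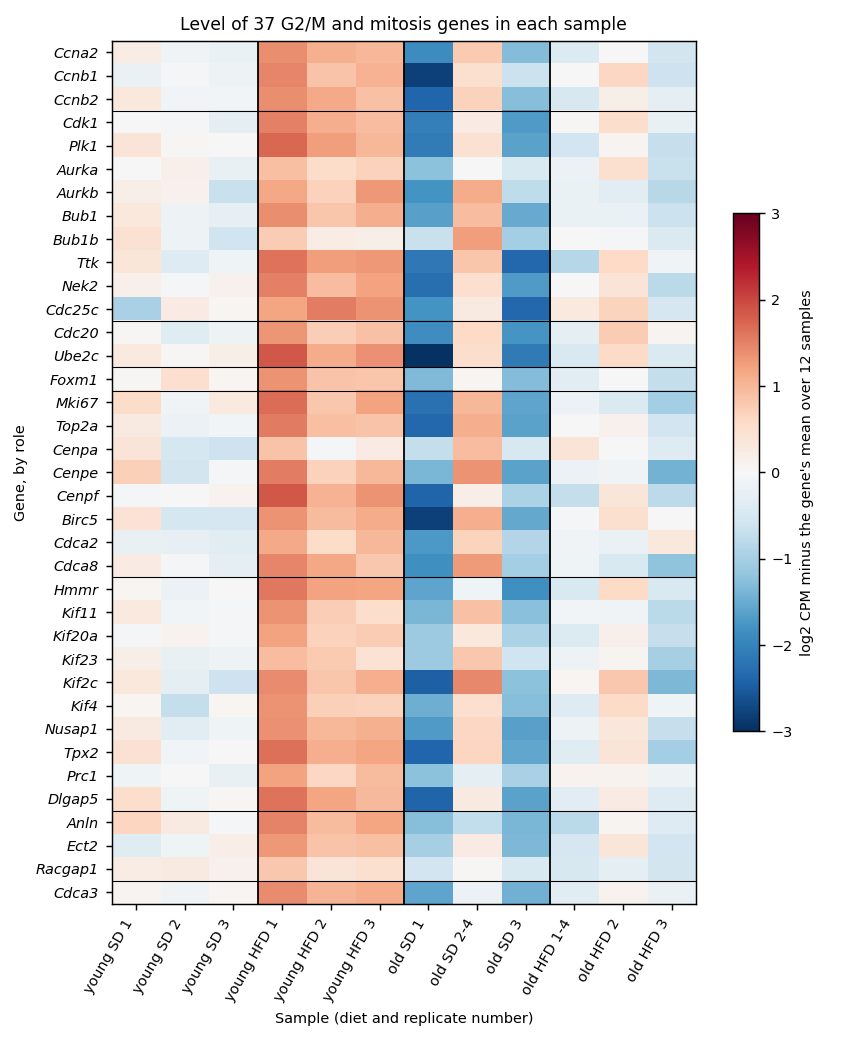
Heat map of log2 CPM for the 37 genes (rows, grouped by role) in the 12 samples (columns), each gene centred on its mean. The young HFD columns are highest for most genes, old SD 1 and 3 are lowest, and old SD 2-4 resembles neither of the other old SD samples.

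Across the 12 samples, young HFD 1 held the highest level of 32 of the 37 genes, and old SD 1 or old SD 3 the lowest of all 37 (30 and 7 genes). The highest sample exceeded the lowest by 2.63 times for Racgap1, a GTPase-activating protein of the cleavage furrow, and by 28.8 times for Ube2c, with a median of 9.11 times. Summed over the 37 genes, the level was 112, 94.0 and 94.5 CPM in the young SD samples and 246, 168 and 180 CPM in the young HFD samples. It was 34.9, 142 and 43.6 CPM in old SD 1, 2-4 and 3, and 80.8, 103 and 64.8 CPM in old HFD 1-4, 2 and 3. The young groups do not overlap, whereas the old SD group lies both below and above the old HFD group.

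The first comparison asks what 1 week of HFD did in young islets. All 37 genes were higher on the HFD, by a median log2 difference of 1.14 (range 0.36 to 1.49), while the median over the 16724 genes tested was -0.02. For 34 of the 37, every HFD sample exceeded every SD sample, a pattern that 12.3% of all genes tested showed; the other 3 were the spindle checkpoint kinase Bub1b and the centromere proteins Cenpa and Cenpe. More dividing cells and more RNA per dividing cell cannot be told apart in bulk RNA. No member passed the edgeR quasi-likelihood test at an adjusted p of 0.05, in a comparison that called 5 genes in all (0.0299% of those tested), although 35 members had an unadjusted p under 0.05. DESeq2 called 32 of the 37 higher (2.73% of all genes), and the authors' deposited table calls 31 higher (2.33%), with a median log2 change of 0.61 on its own scale.

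Among the cyclins, Ccna2, the cyclin of S phase and G2, stood at 4.43, 3.51 and 3.28 CPM on the SD and at 9.92, 7.97 and 7.595 CPM on the HFD. Ccnb1, the main mitotic cyclin, stood at 0.865, 0.966 and 0.891 CPM against 2.76, 1.82 and 2.05 CPM. In both genes the groups are well apart. The log2 difference was 1.18 ± 0.16 (SE; adjusted p = 0.0910, edgeR) for Ccna2 and 1.28 ± 0.22 (adjusted p = 0.109) for Ccnb1, and Ccnb2 was higher by 1.095 ± 0.21.

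The kinase and phosphatase group was also higher on the HFD. Cdk1, the kinase that the cyclins switch on, was at 2.18, 2.11 and 1.80 CPM on the SD and at 6.27, 4.70 and 4.18 CPM on the HFD, a log2 difference of 1.32 ± 0.19 (adjusted p = 0.0920, edgeR). Plk1, which drives entry into mitosis and spindle assembly, was at 1.62, 1.25 and 1.23 CPM against 4.04, 2.95 and 2.46 CPM. Aurkb, the kinase of the chromosomal passenger complex, was at 0.941, 0.907 and 0.524 CPM against 1.87, 1.34 and 2.05 CPM.
All HFD samples of Plk1 and Aurkb exceeded all SD samples, with log2 differences of 1.20 ± 0.24 and 1.14 ± 0.30 (adjusted p = 0.114 and 0.163, edgeR). Bub1b was the exception: SD 1, at 2.89 CPM, exceeded HFD 2 and 3, at 2.47 and 2.37 CPM. Its difference was 0.44 ± 0.31 (adjusted p = 0.498, edgeR), the largest p of the 37. The phosphatase Cdc25c, which activates CDK1, had the largest difference of the set, 1.49 ± 0.37, on the lowest levels, 0.127 to 0.295 CPM on the SD.

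Both members of the anaphase-promoting machinery were higher, the activator Cdc20 by 1.15 ± 0.21 and the ubiquitin-conjugating enzyme Ube2c by 1.32 ± 0.22 on the log2 scale. Foxm1, a transcription factor of G2/M genes, was at 2.89, 3.96 and 2.95 CPM on the SD and at 7.14, 5.06 and 4.98 CPM on the HFD. Its log2 difference, 0.81 ± 0.20 (adjusted p = 0.154, edgeR), was smaller than that of both.

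Of the chromosome proteins, Mki67, which coats mitotic chromosomes, was at 14.3, 9.14 and 12.01 CPM on the SD and at 31.3, 17.3 and 22.7 CPM on the HFD. Top2a, which untangles sister chromatids, was at 9.58, 6.99 and 7.42 CPM against 23.3, 14.8 and 14.3 CPM. Birc5, a subunit of the chromosomal passenger complex, was at 1.35, 0.695 and 0.708 CPM against 2.54, 1.95 and 2.19 CPM. The groups are separate in all 3 genes, and young HFD 1 is the highest sample in each. The log2 differences were 1.01 ± 0.24, 1.13 ± 0.22 and 1.28 ± 0.31 (adjusted p = 0.142, 0.114 and 0.142, edgeR). Cenpa, the histone H3 variant of centromeres, and the centromere motor Cenpe had differences of 0.57 ± 0.36 and 0.98 ± 0.36 (adjusted p = 0.465 and 0.252, edgeR). Cenpa was at 1.93, 1.01 and 0.957 CPM on the SD and at 2.65, 1.41 and 1.74 CPM on the HFD, and Cenpe at 2.85, 1.18 and 1.65 CPM against 4.98, 2.80 and 3.45 CPM. In both genes SD 1 lay above HFD 2, and in Cenpa also above HFD 3.

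The smallest p of the set belonged to Hmmr, a spindle protein of microtubules, and Cdca3, an adaptor that targets Wee1 for destruction. Hmmr was at 2.37, 2.04 and 2.31 CPM on the SD and at 6.84, 5.27 and 5.21 CPM on the HFD, and Cdca3 at 2.66, 2.35 and 2.65 CPM against 6.76, 5.12 and 5.48 CPM. Within each diet the samples of these genes lie close together, and the log2 differences were 1.37 ± 0.16 and 1.18 ± 0.15 (adjusted p = 0.0819 for both, edgeR). The 10 spindle and kinesin genes had differences of 0.78 to 1.37 with a median of 1.11, and the 3 cytokinesis genes 0.36 to 1.11, the lowest being Racgap1.

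**Figure D2:**
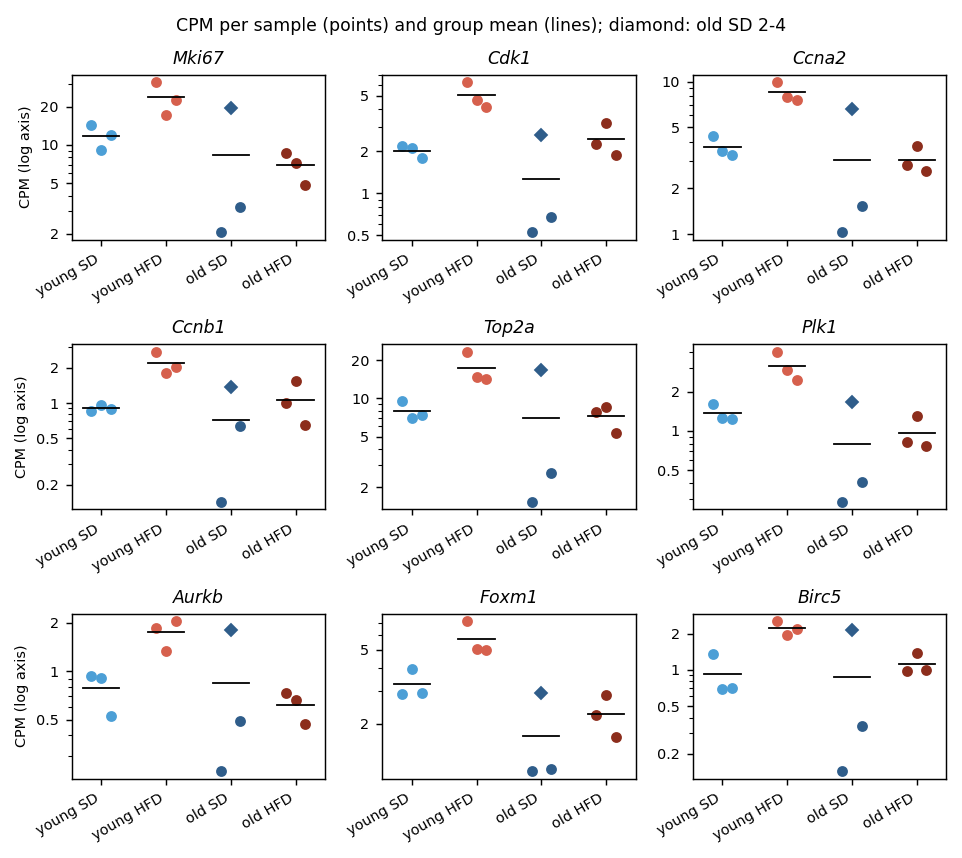
CPM of 9 genes in each sample (points, log axes that differ between panels) with group means (lines). They are cyclins, kinases, chromosome proteins and the transcription factor Foxm1. In each panel the young HFD samples lie above the young SD samples, and the diamond, old SD 2-4, lies far above the other 2 old SD samples.

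Young HFD 1 was the highest young sample for 35 of the 37 genes, as for 16.1% of all genes. It also had the lowest acinar marker level, 2407 CPM, against 21024 to 47131 CPM in the other young samples; the part of this in the result was not tested. Without it, all 37 genes were still higher on the HFD, with a median log2 difference of 0.98. Young SD 1 had the most B cell marker RNA of the young samples, 687 CPM against 17.7 to 76.6 CPM, and without it the median was 1.25. Neither omission gave a member below the edgeR threshold.

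Other parts of the cell cycle give the setting. Of 50 further G2/M genes, 47 were higher on the HFD in young islets, with a median log2 difference of 0.81, and none passed the edgeR threshold; Pbk (1.57), Spc25 (0.69) and Ckap2 (1.66) had the smallest p. In a list of 40 genes for S-phase entry and replication (G1/S), 32 were higher, by a median of 0.21. The 12 MuvB and MYB-partner genes had a median of 0.06, and the 12 cell cycle inhibitors also 0.06. The lists were chosen with earlier results of these data known, and DESeq2 called 21 of the 50 G2/M genes but 1 of the 40 G1/S genes higher. The difference between the lists was not tested.

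The second comparison is the same diet change in old islets, and here the result turns on 1 sample. With all samples, 26 of the 37 genes were higher on the HFD, with a median log2 difference of 0.34 (range -0.63 to 0.98). No member passed the edgeR test, which called 758 genes (4.48% of the 16929 tested), and 2 members had an unadjusted p under 0.05. DESeq2 called 1 member, Prc1, higher (6.48% of all genes). The authors' deposited table calls Hmmr and Prc1 higher (6.43% of its genes are called higher). Prc1 alone had every HFD sample above every SD sample, against 14.7% of all genes.

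Without old SD 2-4, all 37 genes were higher on the HFD, by a median of 1.37 (range 0.08 to 2.45). Since that sample was left out for its high level of these same genes, the choice itself raises the difference. The counts and p-values without it are descriptive. In 30 of the 37, every HFD sample exceeded SD 1 and SD 3, against 20.7% of all genes. The 7 exceptions were Aurka, Aurkb, Cenpe, Kif23, Kif2c, Cdca8 and Racgap1. Then 5 members passed the edgeR threshold (1.16% of all genes were called higher): Cdk1, Cdc20, Top2a, Prc1 and Cdca3, and without both summed samples 13 members did (4.38%). With all 8 libraries kept as separate samples, 16 of the 37 genes were higher and none passed. Leaving out SD 1 or SD 3 instead left 15 or 17 of the 37 genes higher, with medians of -0.08 and -0.03.

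The values of single genes show the place of this sample. Mki67 was at 2.06 and 3.26 CPM in old SD 1 and 3 but at 19.6 CPM in SD 2-4, with the HFD samples 1-4, 2 and 3 at 8.68, 7.20 and 4.82 CPM. Top2a was at 1.54, 16.7 and 2.60 CPM in SD 1, 2-4 and 3, and at 7.80, 8.57 and 5.34 CPM on the HFD. The log2 difference of Mki67 was -0.27 ± 0.78 with SD 2-4 (adjusted p = 0.877, edgeR) and 1.37 without it (adjusted p = 0.0612), and that of Top2a was 0.05 ± 0.80 (adjusted p = 0.978) and 1.80 (adjusted p = 0.0390).

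The kinases and cyclins behaved alike. Cdk1 was at 0.528, 2.60 and 0.675 CPM on the SD and at 2.24, 3.19 and 1.88 CPM on the HFD, with a log2 difference of 0.93 ± 0.60 (adjusted p = 0.408, edgeR) and of 2.01 (adjusted p = 0.0382) without SD 2-4. Ccna2 was at 1.03, 6.57 and 1.53 CPM against 2.84, 3.77 and 2.59 CPM, and Ccnb1 at 0.144, 1.39 and 0.638 CPM against 1.01, 1.55 and 0.647 CPM. The SD 1 value of Ccnb1 is low even beside SD 3, and its HFD 3 value is level with SD 3.
Plk1 was at 0.288, 1.67 and 0.405 CPM against 0.8288, 1.30 and 0.765 CPM, again with the 2 lower SD samples below every HFD sample. Without SD 2-4 the differences were 1.25 for Ccna2, 1.44 for Ccnb1 and 1.46 for Plk1 (adjusted p = 0.0593, 0.258 and 0.0837, edgeR). Aurkb, at 0.240, 1.81 and 0.491 CPM against 0.728, 0.663 and 0.471 CPM, still overlapped: HFD 3 lay below SD 3. Its difference was -0.46 ± 0.68 with SD 2-4 and 0.77 without it (adjusted p = 0.746 and 0.341, edgeR).

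Foxm1 was at 1.12, 2.92 and 1.14 CPM against 2.23, 2.86 and 1.71 CPM, and Birc5 at 0.144, 2.15 and 0.344 CPM against 0.980, 1.39 and 1.00 CPM. Their log2 differences were 0.39 ± 0.42 and 0.34 ± 0.85 with SD 2-4 (adjusted p = 0.638 and 0.858, edgeR) and 1.00 and 2.19 without it (adjusted p = 0.0934 and 0.0530). Kif2c, a kinesin that depolymerises microtubules, was at 0.0960, 1.41 and 0.221 CPM against 0.540, 0.916 and 0.206 CPM. Its log2 difference was -0.08 ± 0.95 (adjusted p = 0.973, edgeR) and 1.79 without SD 2-4 (adjusted p = 0.203).

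A few genes depended on SD 2-4 less. Prc1, the bundler of midzone microtubules, was at 2.14, 4.17 and 2.59 CPM in SD 1, 2-4 and 3 and at 5.43, 5.45 and 4.53 CPM on the HFD. Anln, the cleavage furrow scaffold anillin, was at 0.840, 1.23 and 0.785 CPM against 1.17, 2.18 and 1.57 CPM, and Cdca3 at 0.840, 2.24 and 0.933 CPM against 2.02, 2.72 and 2.21 CPM. In these 3 genes SD 2-4 was the highest SD sample. It lay below every HFD sample in Prc1, below HFD 2 and 3 in Anln and below HFD 2 alone in Cdca3. They had the smallest p of the set: the log2 differences were 0.79 ± 0.25, 0.78 ± 0.31 and 0.78 ± 0.39 (adjusted p = 0.126, 0.193 and 0.297, edgeR), and 1.12, 1.00 and 1.38 without SD 2-4 (adjusted p = 0.0381, 0.134 and 0.0405). Prc1 overlaps an antisense lincRNA whose highest level was 0.0254 CPM.

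**Figure D3:**
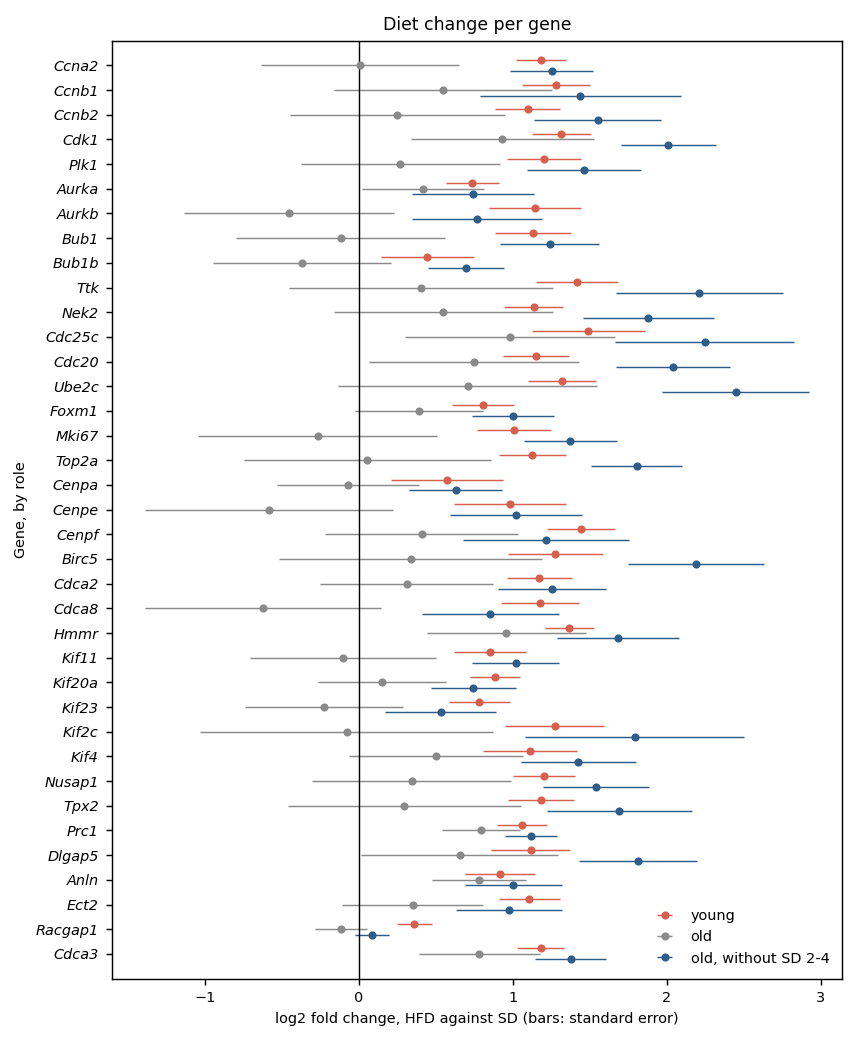
Log2 fold change on the HFD for each of the 37 genes, with standard errors, in young islets, in old islets with all samples, and in old islets without SD 2-4. The young and the reduced old values lie right of 0 for all 37 genes. With SD 2-4 the old values lie on both sides of 0 (26 higher and 11 lower, from -0.63 to 0.98), with wide errors.

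Sample SD 2-4 exceeded the mean of SD 1 and SD 3 by a median of 4.67 times, from 1.46 times for Racgap1 to 8.89 times for Kif2c. By role the median excess was 6.73 times for the chromosome and centromere genes, 5.12 times for the cyclins, 4.96 times for the kinases, 4.105 times for the spindle genes and 1.52 times for the cytokinesis genes. It was the highest old sample for 24 of the 37 genes, as for 22% of all genes. It lay above the young HFD mean for 7 genes (Aurkb, Bub1b, Cenpa, Cenpe, Kif23, Kif2c and Cdca8), and above every other sample of the study for Bub1b, Cenpa and Kif2c. Libraries 2 and 4, summed in it, differed by a median factor of 1.00 over the members.

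Markers of other cell types were also high in SD 2-4. All 9 T cell markers were highest there among the old samples, with a summed level of 53.9 CPM against 12.1 and 9.93 CPM in SD 1 and 3 and 4.22 to 23.3 CPM on the HFD. So were 9 of 10 B cell markers (640 CPM in sum, against 134 and 172 CPM in SD 1 and 3), 7 of 11 macrophage markers (287 CPM, against 135 and 181 CPM) and 10 of 12 acinar markers (160617 CPM, against 54675 and 54860 CPM). Of the 7 germinal centre B cell markers 6 were highest in SD 2-4, with a sum of 27.4 CPM against 7.44 to 14.1 CPM in the other old samples. Among these, chosen after their values were seen, Gcsam was at 5.82 CPM against at most 0.393 CPM in the other old samples. Rgs13, a regulator of G protein signalling, was at 4.1 CPM against at most 0.319 CPM. None of these lists had a marker at 0 in SD 2-4, and 1 germinal centre marker, Mef2b, was at 0 in every other sample.

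Some of these signals were also high in other samples. Old HFD 1-4 had 1384 CPM of B cell markers, above SD 2-4, and 23.3 CPM of T cell markers. Its member sum of 80.8 CPM lay between those of HFD 2 and 3. Most of the B cell sum was Ighm, at 1365 CPM in old HFD 1-4, 518.7 CPM in SD 2-4 and 592.1 CPM in young SD 1. Young SD 1 had 687 CPM of B cell and 34.7 CPM of T cell markers and a member sum of 112 CPM, against 94.0 and 94.5 CPM in SD 2 and 3. Old HFD 2 and 3 had 147665 and 134570 CPM of acinar markers. Libraries SD 2 and 4 also had the lowest share of uniquely mapped reads, 75.01% and 74.96%, against 77.15 to 83.73% in the other old libraries. The part of these signals in the level of the 37 genes was not tested.

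**Figure D4:**
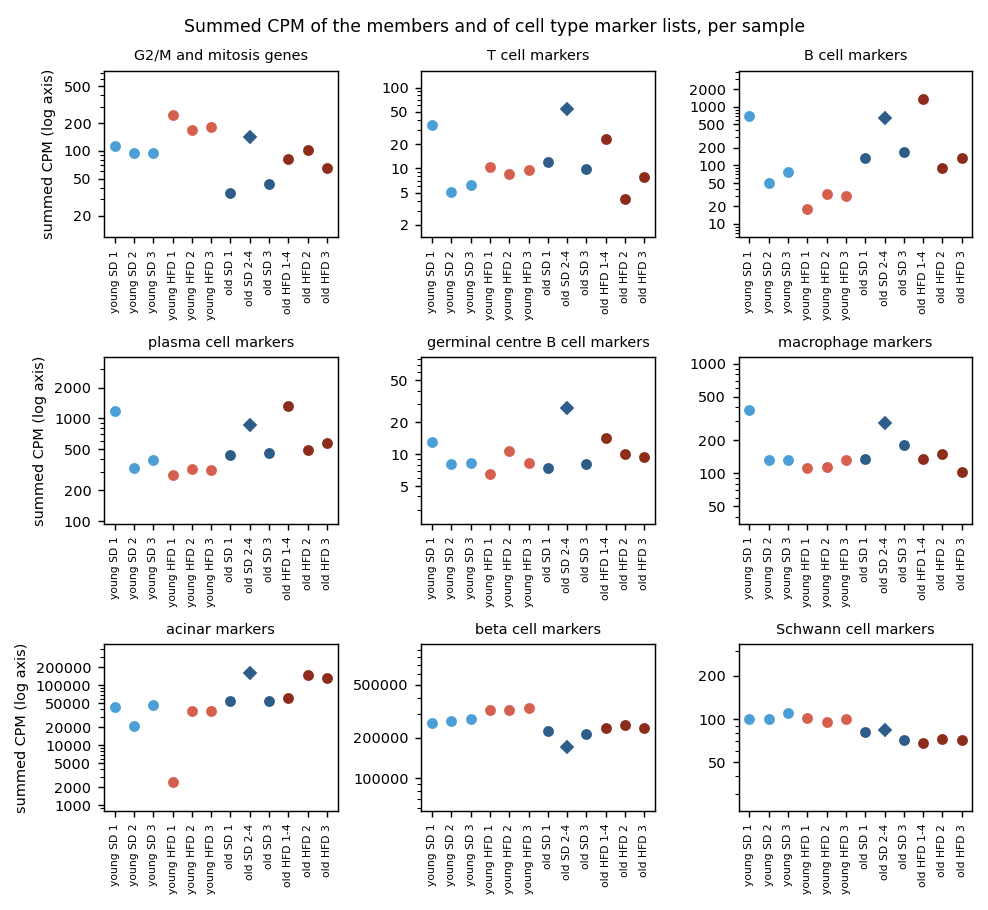
Summed CPM of the 37 genes and of 8 cell type marker lists in each of the 12 samples, on log axes with the diamond for old SD 2-4. SD 2-4 is high for the members and for T cell, B cell, germinal centre, macrophage and acinar markers. Young SD 1 and old HFD 1-4 are also high for B and plasma cell markers.

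Of the 50 further G2/M genes, 31 were higher on the HFD in old islets (median log2 difference 0.16), and 1 passed the edgeR threshold, Cks1b, a CDK-binding subunit (0.55 ± 0.11, adjusted p = 0.0444; 0.0572 without SD 2-4). Without SD 2-4, 48 of the 50 were higher, the median was 0.97 and 4 passed; Ckap2l (2.27), Stil (2.15) and Melk (2.41) had the smallest p. In the G1/S list, 26 of 40 were higher by a median of 0.06, and the 2 that passed were the S-phase factor E2f1 (0.54 ± 0.08, adjusted p = 0.0259, edgeR) and the flap endonuclease Fen1 (0.42 ± 0.08, adjusted p = 0.0350). Without SD 2-4, 33 of the 40 were higher by a median of 0.26, and E2f1 and the replication licensing factor Cdc6 passed (adjusted p = 0.0423 and 0.0353, edgeR). Among the 12 inhibitors, 5 rose in old islets by edgeR, including Btg2 (1.06), Btg1 (0.56) and Cdkn1a (1.04), and these 3 also passed without SD 2-4. In young islets none passed edgeR, but DESeq2 called 3 higher, Cdkn2c (0.73), Cdkn1a (0.77) and Btg1 (0.18). Myc, the transcription factor of the series title, rose in old islets by 0.93 ± 0.17 (adjusted p = 0.0348, edgeR; 1.14 and 0.0346 without SD 2-4) and stood at 0.11 ± 0.25 in young islets (adjusted p = 0.851).

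The interaction asks whether the diet difference was the same at both ages. With all samples the old difference was smaller than the young one for all 37 genes, with a median of -0.82 on the log2 scale, but no member passed the edgeR test (36 genes, 0.204%, did), none had an unadjusted p under 0.05, and DESeq2 called none. The smallest p were those of Racgap1 (-0.48 ± 0.22), Cdca8, a passenger complex subunit (-1.81 ± 0.89), and Aurkb (-1.61 ± 0.82), at adjusted p = 0.408, 0.447 and 0.464 (edgeR). Without SD 2-4 these were -0.27, -0.32 and -0.37. The largest p belonged to Anln (-0.14 ± 0.39), Cdc20 (-0.41 ± 0.79) and Cdk1 (-0.39 ± 0.69). Without SD 2-4 the sign turned for most genes: the old difference was the larger one for 30 of 37, with a median of 0.20, and again none passed (0% of all genes did). Cdca8 was at 1.12, 0.931 and 0.773 CPM on the SD and at 2.62, 2.11 and 1.66 CPM on the HFD in young islets, and at 0.264, 2.31 and 0.466 CPM against 0.860, 0.695 and 0.412 CPM in old ones. For Cdc20 the values were 1.79, 1.36 and 1.57 CPM against 4.38, 2.93 and 3.18 CPM in young and 0.480, 2.66 and 0.515 CPM against 1.41, 2.94 and 1.85 CPM in old islets. Both genes separate the diets in young islets and are spread widely by SD 2-4 in old ones. For Mki67 the interaction was -1.29 ± 0.91 with that sample and 0.37 without it (adjusted p = 0.636 and 0.725, edgeR). No difference between the ages was called for any member in either fit.

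The last comparison sets old against young on each diet. On the HFD, which does not involve SD 2-4, all 37 genes were lower in old islets, by a median log2 difference of -1.27, and 35 had every old sample below every young one (26.9% of all genes; the exceptions were Cdc20 and Cenpa). By edgeR, 11 members fell (20.2% of all genes did): Ccna2, Plk1, Cenpf, Hmmr, Kif20a, Anln, Prc1, Cdca3, Foxm1, Ect2 and Racgap1. Racgap1 was at 16.7, 17.3 and 15.9 CPM in young and at 9.59, 14.7 and 10.6 CPM in old SD samples. On the HFD it was at 25.2, 18.7 and 20.2 CPM in young and at 10.3, 12.02 and 9.79 CPM in old islets, and it fell by 1.00 ± 0.16 on the log2 scale (adjusted p = 0.000567, edgeR). Anln fell by 1.55 ± 0.28 (adjusted p = 0.00136, edgeR) and Cdca3 by 1.33 ± 0.32 (adjusted p = 0.00719). Plk1 fell by 1.71 ± 0.54 and Foxm1 by 1.34 ± 0.36 (adjusted p = 0.0277 and 0.0125, edgeR).
For Mki67 the difference was -1.78 ± 0.66 (adjusted p = 0.0522, edgeR) and for Aurkb -1.49 ± 0.59 (adjusted p = 0.0640). Cdk1, Ccnb1, Top2a and Birc5 had differences of -0.99 to -1.27 with adjusted p of 0.108 to 0.300. The largest p belonged to Cenpa (-0.35 ± 0.45), Bub1b (-0.55 ± 0.51) and Kif2c (-1.04 ± 0.79). The test shares 1 estimate of spread over all 4 groups: without old SD 2-4, which is in neither group, 32 members passed (20.5% of all genes fell then), and without both summed samples 27 did (16.2% of all genes fell then). Without old SD 1 the number was 20 (19.5% of all genes). It was 5, 4 and 5 without old HFD 1-4, old HFD 3 or young HFD 1 (15.2%, 16.5% and 16.4% of all genes), so the count of calls depends on single samples while the direction of all 37 does not.

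Other measures moved with age too. On the HFD the acinar markers summed to 62445 to 147665 CPM in old against 2407 to 38021 CPM in young islets. By edgeR, 5 of the 12 rose, where 3405 of the 17644 genes tested were called higher. Uniquely mapped reads were 74.96 to 83.73% in the old and 86.8 to 90.46% in the young libraries. Their part in the age differences was not tested.

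On the SD, 30 of the 37 genes were lower in old islets with all samples, with a median log2 difference of -0.43, and 3 fell by edgeR (16.7% of all genes did): Anln by 1.403 ± 0.28, Cdca3 by 0.92 ± 0.32 and Racgap1 by 0.52 ± 0.16 (adjusted p = 0.00327, 0.0494 and 0.0277). In the fit without SD 2-4 their differences were -1.64, -1.52 and -0.72. Without SD 2-4 all 37 were lower, by a median of -1.56, and 30 passed (14.8% of all genes). Leaving that sample out for its high level of these same genes enlarges the fall, so the counts and p-values without it are descriptive. In 36 of the 37, all but Cenpa, SD 1 and SD 3 lay below every young SD sample, against 27.7% of all genes. Mki67, for instance, was lower by 2.15 (adjusted p = 0.00127, edgeR) and Plk1 by 1.98 (adjusted p = 0.00173). With all samples the largest p belonged to the midzone kinesin Kif23 (0.0026 ± 0.43), Cenpe (0.0053 ± 0.69) and Birc5 (-0.04 ± 0.72). Kif23 was at 2.21, 1.69 and 1.77 CPM in young SD samples and at 0.924, 3.42 and 1.30 CPM in old SD 1, 2-4 and 3, so the old samples lay on both sides of the young ones. Without old SD 1, old SD 3 or any 1 of the young SD samples, a single member passed (14%, 12.6%, 15%, 13.6% and 11.8% of all genes in that order, the young samples by number).

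Leaving out SD 2-4, the group means ran in the order young HFD, young SD, old HFD, old SD for 25 of the 37 genes, against 7.47% of all genes tested. With SD 2-4 in the old SD mean it was 16 of the 37, against 7.54%. Leaving that sample out for its high level of these same genes lowers the old SD mean. The count of 25 is therefore descriptive, and 7.47% is not a like comparison for it. Without SD 2-4, in the 12 others, among them Cdk1, Ccnb1, Hmmr, Prc1 and Birc5, the old HFD mean exceeded the young SD mean. For Prc1 these means were 5.14 ± 0.53 and 4.66 ± 0.35 CPM (SD, n = 3), and for Hmmr 2.27 ± 1.04 and 2.24 ± 0.17 CPM, so that the neighbours in the middle of the order lay less than 1 SD of the old samples apart. For Mki67 they were 6.90 ± 1.95 CPM in old HFD and 11.8 ± 2.57 CPM in young SD, and the ranges did not overlap.

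Bisulfite sequencing read DNA methylation around the starts of 16 of the 37 genes: Mki67, Cdk1, Ccna2, Ccnb1, Ccnb2, Cdc20, Plk1, Ttk, Top2a, Hmmr, Kif20a, Nusap1, Cdca2, Cdca3, Ube2c and Ect2. Within 5 kb of each start, 182 to 348 CpG cytosines were covered in all young libraries and 161 to 319 in all old ones, with 674 to 3691 reads per library. The other 21 genes had at most 51 reads in any library and no CpG covered in all of an age, so they were not tested. Within 500 bases of the 16 starts, 0.287 to 4.27% of reads were methylated (median 0.449%, from 5087 to 10516 reads per gene over all libraries). The highest were Ccnb2 (4.27%), Top2a (2.94%) and Ccnb1 (2.65%). Pooled per library, 0.786 to 1.30% of reads near the members were methylated, against 22.1 to 30.1% near all gene starts covered. Further out, at 500 bases to 5 kb, it was 62.7 to 67.2%, close to the 63.9 to 68.1% around all genes. In each of the 15 libraries the members' starts were thus almost free of methylation.

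**Figure D5:**
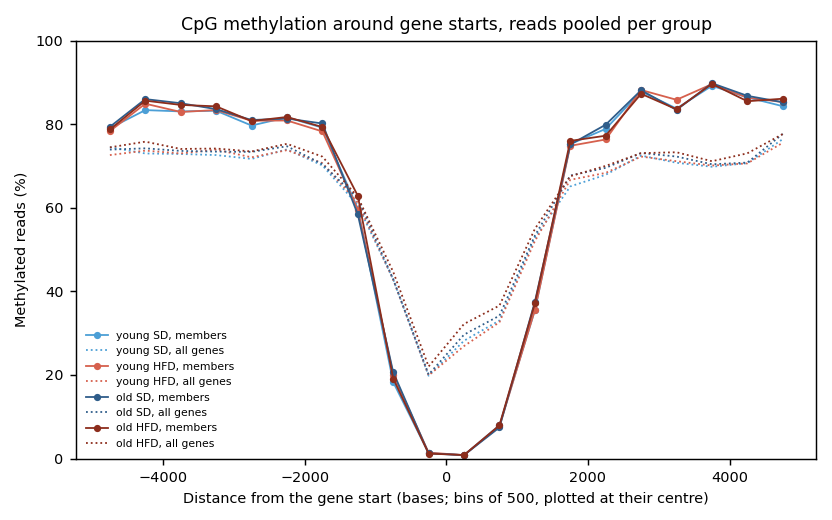
Percent of methylated reads by distance from the gene start (bins of 500 bases, reads pooled per group) for the members and for all genes. In all 4 groups the members' curves lie near 0 at the start and rise on both sides of it, and the groups' curves lie close together.

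Diet made no difference that passed the test at any member start. In young islets 117 gene windows and in old islets 111 were tested with a quasi-binomial model, and none was called (0% in each); unadjusted p fell under 0.05 for 2 and 1 of the 16 members and for 7 and 6 of all windows. The members' differences, HFD minus SD, ran from -3.89 to 3.15 percentage points in young islets, with 11 of 16 higher and a median of 1.93 points against 0.656 over all windows. In old islets they ran from -2.99 to 5.19 points, with 10 of 16 higher and a median of 0.0598 points. The old methylation libraries whose numbers match the summed RNA libraries were counted as separate samples, and their likeness was not checked. Cdca2, a chromatin adaptor of protein phosphatase 1, was at 39.9% on the SD and 42.7% on the HFD in young islets (difference 2.82 points, 95% interval 0.279 to 5.37, adjusted p = 0.634 by the quasi-binomial model across all windows). Ttk, the checkpoint kinase MPS1, was at 56.3% and 59.4% (3.15 points, interval 0.0371 to 6.26), and its test did not pass either.
Ccnb1, Top2a and Kif20a were lower on the HFD at both ages, Ccnb1 by the most. Its level was 55.4, 55.8, 53.8 and 55.4% on the SD and 51.8, 45.2, 56.3 and 51.5% on the HFD in young islets. In old islets it was 58.4, 58.7, 57.3 and 59.3% against 56.6, 57.0 and 52.9%. The young groups overlap through HFD 3. The old groups do not overlap, but how many of all windows separate in this way was not counted. The differences were -3.89 points (95% interval -8.00 to 0.225, adjusted p = 0.713, quasi-binomial model) and -2.99 points (-5.83 to -0.161, adjusted p = 0.788). Of single CpG cytosines with at least 10 reads in every library of an age, 1137 in young and 767 in old islets were tested and none was called (0% in each). Of these 170 and 93 lay within 5 kb of a member start, with an unadjusted p under 0.05 for 3 and 5.

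Counting could mix genes where 15 of the 37 members overlap another annotated gene, since whether the counting used strand is not given in the sources used here. In 5 of them an opposite-strand or neighbouring gene reached more CPM than the member: Exosc9 for Ccna2, Elovl1 for Cdc20, Cdc23 for Kif20a, Pdzd11 for Kif4 and 9930104L06Rik for Cdca8. The other 22 members, among them Mki67, Cdk1, Ccnb1, Plk1, Aurkb, Birc5, Hmmr, Anln and Racgap1, overlap none.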

How the data were processed

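RNA-seq and targeted bisulfite sequencing of islets were analysed from deposited tables. The gene counts were made by the authors with STAR 2.4.2a on mm10 and featureCounts 1.4.3, per the submitters' processing notes, in 1 table per age. The authors' DESeq2 tables give log2 fold changes and p-values, per the file headers. Methylation calls (Trimmomatic, BSMAP and bedtools, per the submitters' processing notes) give reads and the percent methylated at each CpG, strands listed apart, as deposited. The percent of reads uniquely mapped comes from the authors' deposited quality tables. The estimated counts per transcript were not used.

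Pairs of libraries with a scaled chi-square under 3 (1 for sampling noise alone) were summed and counted as 1 sample. The chi-square was taken over genes with a mean of at least 200 counts per library of the pair. Genes were kept by edgeR's filterByExpr, scaled by TMM and tested with edgeR 4.0.16 (quasi-likelihood, R 4.3.3), with Benjamini-Hochberg adjustment over all genes tested and a threshold of 0.05. Diet was tested within each age, and age and the interaction in 1 model over all 12 samples. The standard error is the log2 difference divided by the square root of F. Fits without a library and with DESeq2 1.42.0 are alternatives, as are those listed in the closing section. Methylation within 5 kb of a start was tested on reads with a quasi-binomial model (dispersion of at least 1), over CpGs covered in every library of the age and windows with at least 20 reads per library; the deposited counts of reads per library were 488262 to 799617, with a median of 1 per CpG, which limits the precision. Scripts were tested on simulated data.

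The 37 genes and all lists were chosen with earlier results of these data known. Given in full are 9 genes picked for their roles and, in each RNA comparison, the 3 with the smallest and the 3 with the largest p. Of the other lists at most the 3 with the smallest p are named. Myc is named because the series title names it. Replicate numbers are shared between diets, and a summed sample was given its lower number. Same-numbered samples did not deviate together (correlations -0.15 to 0.172). Samples SD 2-4 and HFD 1-4, which share number 4, stood at 0.202. That lies inside the range of pairs with different numbers, -0.341 to 0.251, so the samples were not treated as paired.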

Additional observations from a re-analysis of the deposited data

Results flagged for a closer look

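In 48 groups of 4 methylation libraries, 4 values lay far from the other libraries of their group, where chance alone marks about 1 group in 20. All are in young islets and in library 4 of a diet. Methylation within 5 kb of the Ccna2 start was 36.94% in HFD library 4, the lowest of its group. Around Cdk1 it was 64.33% in HFD library 4 and 59.16% in SD library 4, each the highest of its group. Around Mki67 it was 53.93% in SD library 4, again the highest. None of these genes differed between diets by the test over all windows.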

How the results depend on the processing

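Which members passed depended on the tool and on single samples, while the direction did not for young diet and for age on the HFD. In young islets 0 members passed with edgeR (0.0299% of all genes did) and 32 with DESeq2 (2.73% were called higher). With no filter on low counts 1 passed (12 of 25428 genes were called higher). In old islets 0 passed (4.48% of all genes did), against 1 with DESeq2 (6.48% higher) and 13 without both summed samples (4.38% higher). When 1 sample was left out at a time, 0 to 5 passed, the 5 without SD 2-4 (1.16% higher). On the SD, 3 members were lower with age (2943 of 17644 genes were). It was 5 with DESeq2 (3086 of 17644) and 30 without both summed samples (2646 of 17828). With 1 sample left out it was 1 to 30, the 30 without SD 2-4 (2664 of 17969). In the fits with 1 member, 11.8 to 15% of all genes were lower. On the HFD, 11 were lower (3557 of 17644 genes were), against 24 with DESeq2 (3794 of 17644) and 17 with the replicate block (2219 of 17644). Without both summed samples it was 27 (2893 of 17828). With 1 sample left out it was 4 to 32 (16.5% and 20.5% of all genes in those 2 fits). Replicate numbers did not pair the samples, and with the replicate block 0 members passed in either diet comparison, as did 0 of all genes tested. The block was set within each age, so that fit does not compare the group means of the ages. Its results for age are left out. No methylation window of a member passed under any alternative. In the old diet comparison, log2 differences with the other sign were, with the replicate block Mki67 0.39 and Kif2c 0.47; without both summed samples Mki67 1.17, Aurkb 0.63 and Kif2c 1.80; in 1 fit over all samples Ccna2 -0.0048; with DESeq2 size factors in edgeR Ccna2 -0.0035; with all 8 libraries as samples Ccna2 -0.37, Top2a -0.34, Plk1 -0.11 and Birc5 -0.12; with libraries 1 to 3 only Ccna2 -0.026. Leaving out 1 sample at a time there moved Mki67 from -0.73 to 1.37, Ccna2 from -0.40 to 1.25, Top2a from -0.42 to 1.80, Plk1 from -0.12 to 1.46, Aurkb from -0.89 to 0.77, Birc5 from -0.16 to 2.19 and Kif2c from -0.61 to 1.79. In the interaction, log2 differences with the other sign were, without both summed samples Mki67 0.17, Cdk1 0.76, Ccna2 0.13, Ccnb1 0.20, Top2a 0.62, Plk1 0.36, Foxm1 0.21, Birc5 1.01, Cdc20 1.11 and Anln 0.29; with the replicate block Cdc20 0.020. Leaving out 1 sample at a time there moved Mki67 from -1.74 to 0.37, Cdk1 from -0.76 to 0.70, Ccna2 from -1.59 to 0.071, Ccnb1 from -1.22 to 0.16, Top2a from -1.55 to 0.68, Plk1 from -1.33 to 0.26, Foxm1 from -0.66 to 0.19, Birc5 from -1.44 to 0.92, Cdc20 from -0.78 to 0.89 and Anln from -0.42 to 0.089. In old against young on the SD, log2 differences with the other sign were, with the replicate block Aurkb -0.55, Cenpe -0.56 and Kif23 -0.24; without both summed samples Aurkb -1.11, Cenpe -1.61 and Kif23 -0.76. Leaving out 1 sample at a time there moved Ccna2 from -1.54 to 0.12, Ccnb1 from -1.21 to 0.16, Top2a from -1.95 to 0.28, Aurkb from -1.11 to 0.55, Birc5 from -1.91 to 0.45, Cenpe from -1.61 to 0.43 and Kif23 from -0.76 to 0.33. Estimated transcript counts were not run as an alternative, because no table used here pairs transcripts with genes. Low levels, such as those of Cdc25c, which stayed under 1 CPM in every sample, and windows of low coverage limit what could be detected. The cause of these changes was not tested.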
